A study of Mus musculus with 4 samples.

Results

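Nuclear-encoded genes of oxidative phosphorylation were followed in single nuclei of the adult mouse hippocampus. The members were all gene IDs whose symbol begins with Ndufa, Ndufb, Ndufc, Ndufs, Ndufv, Uqcr, Cox4, Cox5, Cox6, Cox7, Cox8 or Atp5, together with Sdha, Sdhb, Sdhc, Sdhd, Cyc1, Usmg5 and Atpif1, without symbols marked as pseudogenes by -ps. This rule gave 101 gene IDs (100 symbols, since Atp5o carries 2 IDs) of the 55422 listed. By role they were 7 core subunits, 32 accessory subunits and 8 assembly factors of complex I, 4 subunits of complex II, 9 of complex III, 21 of complex IV and 20 of complex V. GENCODE M21 annotates 4 of these IDs as processed pseudogenes (Ndufa11b, Ndufb4c and Ndufs6b, counted here with the accessory subunits, and Cox6c2, with complex IV), and 0 of the 4 had enough counts to be tested in any class. Control mice were Kat6a-f/f, which carry a Kat6a gene flanked by sites for Cre recombinase. Kat6a-cKO mice carried NEX-cre on the same Kat6a-f/f background, so both groups shared the floxed alleles and only Kat6a-cKO mice carried the recombinase. NEX-cre is active in forebrain excitatory neurons, and inhibitory neurons and glia are not its main targets. Each group had 2 libraries, numbered in the labels, which give no exact age, sex or preparation day and do not say whether each library is 1 animal. P-values therefore measure only the spread between libraries.

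Oxidative phosphorylation moves electrons from NADH and succinate through complexes I, II, III and IV of the inner mitochondrial membrane and uses the resulting proton gradient to make ATP at complex V. Most subunits are encoded by short nuclear genes whose mRNAs are abundant in the cytoplasm and near mitochondria, and a small set is encoded by mitochondrial DNA. Neurons depend on this pathway for firing and synaptic transmission. Droplets can also take up transcripts from the suspension, here called free RNA.

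Total UMIs (unique transcript molecules) per library ranged from 171323466 to 186897245. Barcodes of 5000 UMIs or more were taken as nuclei, and after removal of called doublets 31465 of 32572 remained, or 7613 to 8144 per library. Any pair of libraries shared 15 to 20 of these barcodes. Nuclei were clustered without the member genes and classed by markers as CA3 (471 to 654 per library), CA1 (1360 to 1744), dentate granule (2693 to 3389), inhibitory neurons (294 to 381), astrocytes (49 to 132), oligodendrocytes (56 to 167) and oligodendrocyte precursors or OPC (93 to 175). A cluster of 1160 nuclei led by Nxph1 and Kcnmb2 stayed unnamed, although 8 of 12 inhibitory markers were raised in it, so the inhibitory class lacks it. Several glial clusters of neuron-like UMI count and clusters with too few raised markers (the largest of 823 nuclei) were also left unnamed and are in no class. Clusters named CA2 (429 nuclei), mossy cells (183), subiculum and cortex (783, 441 and 341), Cajal-Retzius (103) and ependymal (39) were not tested by class. Counts of the cre transgene were 0 in every class of both Control libraries, 31 and 48 in CA3 of Kat6a-cKO 1 and 2, 54 and 54 in CA1, 5 and 6 in dentate granule, and 0 in the inhibitory and glial classes of both. As CPM (counts scaled to the UMI total of the class) these were 2.21 and 2.96 in CA3, 2.29 and 1.8 in CA1, and 0.145 and 0.19 in dentate granule. Glial classes of the Kat6a-cKO libraries held 284542 to 955924 UMIs, too few for their 0 counts to show an absence of cre. Kat6a itself did not check the deletion, because its counts were not limited to a deleted exon, and in CA3 its log2 fold change was -0.05 (SE 0.08, adjusted p 0.928, edgeR's quasi-likelihood test).

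Promoters of the members are shown for their sequence, since factors that bind near the start of many respiratory genes are known; no link between these sequences and the values by group was tested. RefSeq (GRCm38.p6) gave promoters of 300 bases, from 250 before to 50 after the start, for 78 of the 100 symbols, 83 promoters in all. Exact matches on either strand were counted for the NRF1 motif, for an ETS core of the kind bound by GABP (CCGGAAG) and for YY1 (AAGATGGCG), factors known to regulate many respiratory genes. At least 1 of these motifs lay in 30 of 83 member promoters (36.1%), against 10.8% of 32851 promoters. The ETS core lay in 22.9% against 8.86%, YY1 in 9.64% against 1.4% and NRF1 in 8.43% against 0.971%. Median GC content was 58.3% against 52.7%. All 8 YY1 matches and 19 of 22 ETS matches began later than 100 bases before the start. The ETS core and the YY1 motif can share the letters AAG, and no 2 matches in a member promoter overlapped. A match is a description of the letters and not of binding.

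Printed here are the promoters of 5 of the 7 members of smallest p in dentate granule nuclei, and of Ndufs4, whose level there differed little between groups, all chosen after their values were seen. Capitals mark the motif matches, and sequences run 5′ to 3′ on the gene's strand. Usmg5 (chr19:47090598-47090897, minus strand, listed by RefSeq as Atp5md) encodes a small subunit of ATP synthase dimers. Cox5b (chr1:36691237-36691536, plus strand) encodes a subunit of cytochrome c oxidase. Atp5k (chr5:108434350-108434649, minus strand) encodes subunit e of ATP synthase. Uqcr11 (chr10:80406772-80407071, minus strand) encodes a small subunit of complex III. Ndufc1 (chr3:51408906-51409205, minus strand) and Ndufs4 (chr13:114388045-114388344, minus strand) encode accessory subunits of complex I.
Usmg5: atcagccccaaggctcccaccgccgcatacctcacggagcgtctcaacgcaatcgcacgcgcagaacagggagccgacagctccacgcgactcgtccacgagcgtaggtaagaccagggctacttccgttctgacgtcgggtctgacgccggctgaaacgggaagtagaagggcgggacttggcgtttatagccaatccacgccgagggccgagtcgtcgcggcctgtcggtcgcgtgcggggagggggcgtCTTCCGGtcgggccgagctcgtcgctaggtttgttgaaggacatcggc
Cox5b: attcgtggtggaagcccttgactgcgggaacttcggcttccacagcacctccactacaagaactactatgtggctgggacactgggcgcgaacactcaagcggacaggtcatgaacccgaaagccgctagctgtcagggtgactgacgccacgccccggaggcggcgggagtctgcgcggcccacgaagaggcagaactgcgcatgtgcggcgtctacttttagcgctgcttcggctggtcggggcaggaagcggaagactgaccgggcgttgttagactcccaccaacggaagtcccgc
Atp5k: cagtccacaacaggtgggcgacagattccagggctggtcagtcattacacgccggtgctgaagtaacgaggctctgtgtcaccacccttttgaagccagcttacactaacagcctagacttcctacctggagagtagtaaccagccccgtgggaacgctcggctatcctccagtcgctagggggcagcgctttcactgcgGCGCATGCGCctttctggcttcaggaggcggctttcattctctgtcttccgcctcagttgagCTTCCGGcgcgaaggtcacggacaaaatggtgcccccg
Uqcr11: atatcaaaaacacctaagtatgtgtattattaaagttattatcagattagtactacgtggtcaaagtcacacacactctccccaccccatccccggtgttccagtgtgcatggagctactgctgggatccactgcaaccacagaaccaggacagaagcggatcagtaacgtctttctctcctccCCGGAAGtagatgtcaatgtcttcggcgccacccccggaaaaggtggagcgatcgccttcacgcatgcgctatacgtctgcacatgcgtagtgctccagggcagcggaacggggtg
Ndufc1: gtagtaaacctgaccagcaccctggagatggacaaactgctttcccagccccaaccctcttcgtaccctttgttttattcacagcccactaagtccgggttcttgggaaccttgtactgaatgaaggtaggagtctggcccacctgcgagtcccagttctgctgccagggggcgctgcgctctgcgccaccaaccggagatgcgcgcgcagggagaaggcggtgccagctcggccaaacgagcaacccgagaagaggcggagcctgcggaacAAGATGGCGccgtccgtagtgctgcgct
Ndufs4: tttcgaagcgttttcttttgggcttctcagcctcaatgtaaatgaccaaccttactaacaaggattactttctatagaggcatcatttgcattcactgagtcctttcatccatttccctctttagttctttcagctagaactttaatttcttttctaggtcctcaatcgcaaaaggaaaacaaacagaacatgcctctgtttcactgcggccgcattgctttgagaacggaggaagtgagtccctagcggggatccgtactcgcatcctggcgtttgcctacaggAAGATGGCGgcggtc
Usmg5 held the ETS core on the other strand just after the start, Atp5k held NRF1 50 bases before the start with an ETS core after it, and Uqcr11 held an ETS core 66 bases before it. Ndufc1 and Ndufs4 both held YY1 after the start, and their values in dentate granule nuclei are given below. Cox5b held no exact match to any of the motifs in this window, and near matches were not searched. Of the members that fell in dentate granule nuclei, 15 had a promoter entry and 9 of these (60%) held a motif, against 21 of 61 (34.4%) among tested members that did not pass. The ETS core was in 8 of the 15 and 11 of the 61, YY1 in 2 and 6, and NRF1 in 1 and 6, and no difference between these sets was tested.

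Members together took a smaller share of UMIs in Kat6a-cKO than in Control libraries in each of the 7 classes tested, including the classes with no cre counts. In dentate granule nuclei the share was 0.335% and 0.379% in Control 1 and 2 and 0.272% and 0.29% in Kat6a-cKO 1 and 2. In CA1 it was 0.252%, 0.294%, 0.221% and 0.228% in the same order, and in CA3 0.218%, 0.252%, 0.198% and 0.201%. Each Kat6a-cKO value was under each Control value in all 7. The Kat6a-cKO mean was lower by 21.3% in dentate granule, 17.8% in CA1, 15.2% in CA3, 16.3% in inhibitory neurons, 18.9% in astrocytes, 27.6% in oligodendrocytes and 25.6% in OPC. The exact permutation test gave p = 0.33 in every class, two-sided, which is the smallest p that 2 libraries against 2 allow. Within bins of nuclei that start at 5000, 10000 and 20000 UMIs, the share of the neuronal classes fell with depth, and in every class each Kat6a-cKO library stayed under each Control library wherever all 4 libraries filled the bin.

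The same order was present in free RNA. In barcodes of 100 to 900 UMIs, too poor to be nuclei, members took 3.61% and 3.83% of UMIs in the Control libraries and 3.03% and 3.06% in the Kat6a-cKO libraries (exact permutation p = 0.33, the smallest possible). These barcodes numbered 70816 to 73544 per library. They held on average 507, 544, 410 and 379 UMIs in Control 1, Control 2, Kat6a-cKO 1 and Kat6a-cKO 2, so both the amount of free RNA per droplet and the member share in it were lower in the Kat6a-cKO libraries. A droplet of this kind carried 18.3, 20.8, 12.4 and 11.6 member UMIs, and a dentate granule nucleus 42.6, 46.2, 31.7 and 34.0. Nucleus minus droplet left 24.3, 25.4, 19.3 and 22.4 member UMIs in dentate granule, 44.4, 45.3, 36.1 and 38.2 in CA3 and 14.1, 15.3, 14.2 and 15.8 in astrocytes. The groups stayed apart, with Kat6a-cKO lower, in the 4 neuronal classes and in oligodendrocytes (11.5, 12.3, 10.5 and 10.9), and overlapped in astrocytes and OPC. These UMIs per nucleus are not scaled for depth, and nuclei held on average 12710, 12179, 11622 and 11725 UMIs in dentate granule and 28737, 26212, 24534 and 24778 in CA3, fewer in the Kat6a-cKO libraries.

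Free RNA differed between the groups in other genes as well. A list of 8 RNAs retained in the nucleus took 1.04% and 0.879% of UMIs in barcodes of 100 to 900 UMIs of the Control libraries and 1.4% and 1.42% in those of the Kat6a-cKO libraries, so the groups were apart with Kat6a-cKO higher, while in all nuclei together the groups overlapped for this list. The mitochondrially encoded subunits took 0.133%, 0.153%, 0.15% and 0.177% of free RNA, with overlapping groups. In barcodes of over 900 and under 2500 UMIs, used for no class, members took 2.22%, 2.33%, 0.958% and 0.987%, lower by 57.3% in Kat6a-cKO. The nuclear retained RNAs took 1.75%, 1.4%, 2.5% and 2.48% there. These barcodes held on average 1370, 1400, 1750 and 1700 UMIs in Control 1, Control 2, Kat6a-cKO 1 and Kat6a-cKO 2. Their depth thus differed between the groups, and its part in these shares was not tested. In barcodes of 2500 to under 5000 UMIs members took 0.665%, 0.758%, 0.502% and 0.501%. The part of these differences in the results by class was not tested.

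**Figure D1:**
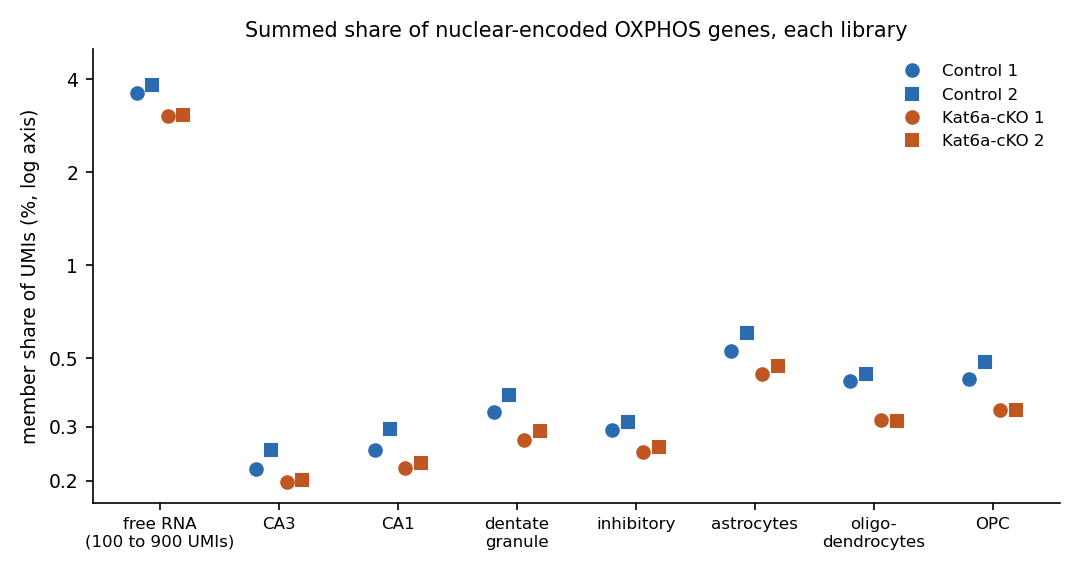
Summed share of UMIs held by the members (percent, log axis) in each library, for free RNA (barcodes of 100 to 900 UMIs) and for each class; points are single libraries, coloured by group. Free RNA sits between 3.03% and 3.83% and dentate granule nuclei between 0.272% and 0.379%, and in each column the Kat6a-cKO points lie lowest.

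Nearly all members were enriched in free RNA over nuclei. CPM here are counts scaled to the UMI total of the same barcodes of a library, free RNA or nuclei, each taken apart. Of 101 members, 92 had higher CPM in free RNA than in nuclei in all 4 libraries. Among all 14240 genes of at least 1 CPM in nuclei the share was 48.6%. For the 90 members of at least 1 CPM the median ratio of free RNA to nuclei was 13.9, against 1.08 for all such genes. This ratio is that of the mean CPM over the 4 libraries, with 1 CPM added to both terms. The highest ratios were those of Atp5e, the epsilon subunit of ATP synthase (27.2), Uqcr11 (25.3) and Ndufa4, a complex IV subunit despite its name (23.3). The lowest were Cox7b2, a testis-type isoform (0.548), the second Atp5o ID (0.647), Ndufs1, the largest core subunit of complex I (0.726), and the methyltransferase Ndufaf7, an assembly factor (0.865); these members were named for their rank after the values were seen. The ratio went with gene length: the median was 16.6 for the 59 members spanning under 10 kb, 6.28 for the 24 of 10 to 30 kb and 1.64 for the 7 of 30 kb or more. Across the 90 members Spearman's rho of span and ratio was -0.67, a description over genes that share the same libraries.

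Dentate granule nuclei had the most members that passed the test. Of 91 members tested by edgeR's quasi-likelihood test, 19 fell and 0 rose at a Benjamini-Hochberg adjusted p under 0.05. Among all 17296 genes tested, 0.515% were called lower and 0.561% either way. For 77 of the 91 the groups did not overlap, with Kat6a-cKO lower, against 20.5% of all genes. An unadjusted p under 0.05 was reached by 63 members and by 10% of all genes. The median log2 fold change of members was -0.35, and that of all genes 0.00.

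**Figure D2:**
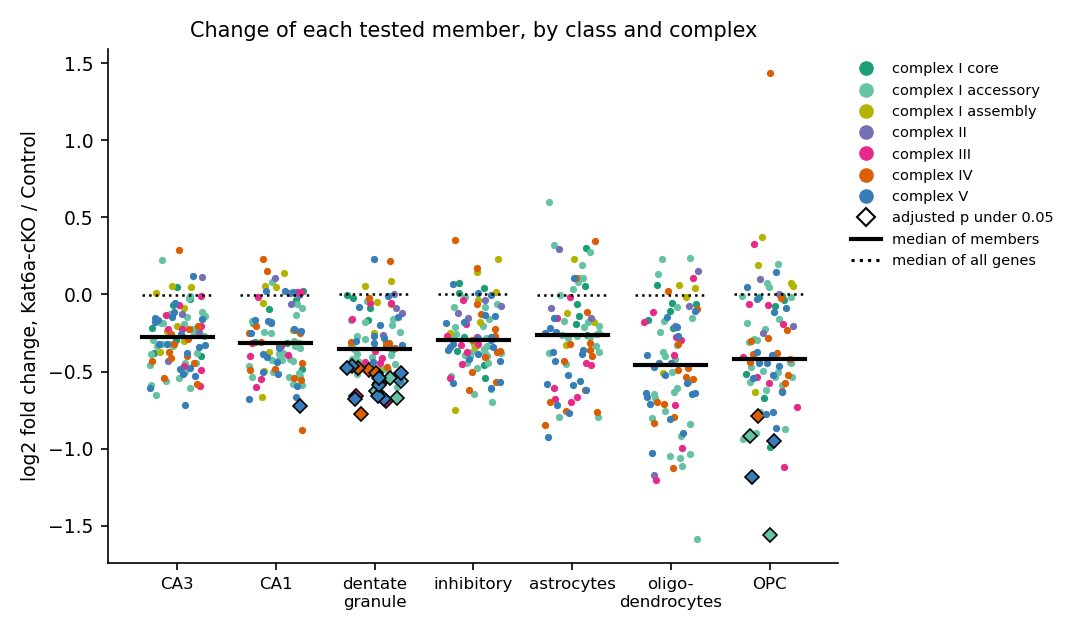
Log2 fold change (Kat6a-cKO over Control, edgeR) of each tested member in each class, coloured by complex; diamonds with a black edge passed an adjusted p of 0.05, the solid bar is the median of members and the dotted bar the median of all genes tested. The solid bars lie at -0.35 in dentate granule, -0.31 in CA1 and -0.28 in CA3, below the dotted bars at 0.00 in these classes.

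Complex IV, cytochrome c oxidase, passes electrons to oxygen. Of its 14 members tested in dentate granule nuclei, 5 fell and the median log2 fold change was -0.47. Cox5b (ENSMUSG00000061518.11, chr1:36691449-36693681, a gene of 2.23 kb) measured 29.8 and 31.5 CPM in the Control and 18.3 and 17.6 CPM in the Kat6a-cKO libraries. The groups were well apart, and the log2 fold change was -0.78 (SE 0.09, edgeR adjusted p 0.0124). Cox6c, a small membrane subunit, measured 137, 149, 101 and 102 CPM in the order Control 1, Control 2, Kat6a-cKO 1, Kat6a-cKO 2 (log2 fold change -0.49, SE 0.07, edgeR adjusted p 0.0200). Cox7a2, the non-muscle form of subunit VIIa, measured 70.5, 74.8, 52.4 and 52.1 CPM, and Cox8a, the smallest subunit, 93.4, 107, 69.6 and 71.2. Both sets of libraries were again apart, with edgeR adjusted p of 0.0234 and 0.0266. Cox4i1, the common form of subunit IV, measured 32.0, 33.3, 19.7 and 24.1 CPM, and it passed narrowly at an adjusted p of 0.0493.

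The remaining listed members of complex IV did not pass. Ndufa4 measured 93.5, 112, 67.1 and 79.9 CPM (edgeR adjusted p 0.0895), and Cox5a, Cox6a1, Cox6b1 and Cox7a2l had log2 fold changes from -0.47 to -0.31. Their Kat6a-cKO libraries all lay below their Control libraries. Cox7c, a small subunit of the enzyme, stood apart from them with 33.2, 48.2, 46.0 and 48.6 CPM. Here the groups overlapped and Control 1 was the low library (log2 fold change 0.22, edgeR adjusted p 0.689). Its ratio of free RNA to nuclei was 3.21, against 22.2 for Cox5b and 16.5 for Cox6c, which passed. Among those that did not pass it was 23.3 for Ndufa4, 16.6 for Cox6b1, 15.3 for Cox5a, 11.5 for Cox7a2l and 11.1 for Cox6a1.

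Complex V, the ATP synthase, had 8 of 20 tested members lower in dentate granule nuclei, with a median log2 fold change of -0.38. Usmg5 (ENSMUSG00000071528.4, chr19:47083464-47090647) measured 48.5, 50.6, 31.7 and 30.2 CPM (log2 fold change -0.68, SE 0.08, edgeR adjusted p 0.0124). Atp5k measured 36.8, 35.4, 22.1 and 23.1 CPM with an adjusted p of 0.0135. In both genes the lowest Control library exceeded the highest Kat6a-cKO library by more than the spread within groups. Atp5mpl, a small membrane subunit, measured 31.8, 32.1, 19.0 and 21.6 CPM, and Atp5e 36.1, 39.8, 25.0 and 25.4 CPM. Atpif1, the inhibitor that keeps the synthase from running backwards, measured 56.0, 58.9, 41.3 and 42.0 CPM (edgeR adjusted p 0.0315). Atp5g3, a gene for the c-ring subunit, fell with an adjusted p of 0.0448, and Atp5j and Atp5h, stalk subunits named after their values were seen, with 0.0336 and 0.0440.

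The alpha and beta subunits of the synthase did not pass. Atp5b, the beta subunit, measured 75.0, 81.4, 58.0 and 67.6 CPM (edgeR adjusted p 0.187), and Atp5a1, the alpha subunit, 54.9, 59.7, 45.5 and 48.6 CPM (adjusted p 0.203). The Kat6a-cKO libraries were lower for both. The c-ring genes differed among themselves, with Atp5g1 at a log2 fold change of -0.33 (adjusted p 0.343) and Atp5g2 at -0.08 with overlapping groups. Their ratios of free RNA to nuclei were 15.3 for Atp5g1, 2.44 for Atp5g2 and 22.0 for Atp5g3.

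Complex I oxidises NADH. None of its 7 core subunits passed (3 at an unadjusted p under 0.05 in edgeR), with a median log2 fold change of -0.165. Of 29 accessory subunits tested 4 fell, and the median was -0.42; the difference between core and accessory subunits was not tested. Ndufc1 measured 31.2, 35.8, 21.2 and 20.8 CPM (edgeR adjusted p 0.0200), and Ndufa1, Ndufb7 and Ndufa6, named after their values were seen, passed at 0.0263, 0.0450 and 0.0478. In all 29 the higher Kat6a-cKO library was under the lower Control library. Ndufb8, a membrane-arm subunit, measured 21.2, 23.4, 15.8 and 16.0 CPM and did not pass (adjusted p 0.0656).

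Several listed members of complex I did not pass. Ndufs1 (chr1:63143596-63176833) measured 69.1, 73.4, 69.6 and 72.3 CPM, so the groups overlapped. Ndufs4 (chr13:114287795-114388258), an accessory subunit mutated in Leigh syndrome, measured 116, 114, 111 and 113 CPM (log2 fold change -0.04, edgeR adjusted p 0.905). Ndufv2, of the NADH-binding module, measured 60.2, 63.0, 58.7 and 62.7 CPM. None of these passed, and neither did any of the 8 assembly factors (0 called, 4 at an unadjusted p under 0.05), whose median log2 fold change was -0.157. Of these, Ndufaf4, chosen after its values were seen, measured 30.9, 26.4, 23.5 and 22.6 CPM with the groups apart (edgeR adjusted p 0.274), and Ndufaf2 39.8, 42.6, 40.3 and 38.7 CPM.

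Complex II oxidises succinate and complex III hands electrons from ubiquinol to cytochrome c. Complex II had 0 of 4 members called in dentate granule nuclei (0 at an unadjusted p under 0.05). Sdha, its flavoprotein, measured 50.2, 51.2, 45.3 and 47.8 CPM (log2 fold change -0.12, edgeR adjusted p 0.666) and Sdhb, its iron-sulfur subunit, 27.3, 31.3, 29.3 and 29.4 CPM with overlapping groups. In complex III 2 of 9 members fell. Uqcr11 measured 41.0, 45.6, 27.1 and 26.6 CPM (edgeR adjusted p 0.0135) and Uqcrb, a small subunit of the same complex, 31.3, 29.9, 19.2 and 19.6 CPM (adjusted p 0.0164). The core protein gene Uqcrc1 measured 33.0, 36.8, 33.2 and 33.9 CPM and the cytochrome c1 gene Cyc1 15.1, 19.3, 13.0 and 17.7 CPM. The groups overlapped for these 2 members.

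**Figure D3:**
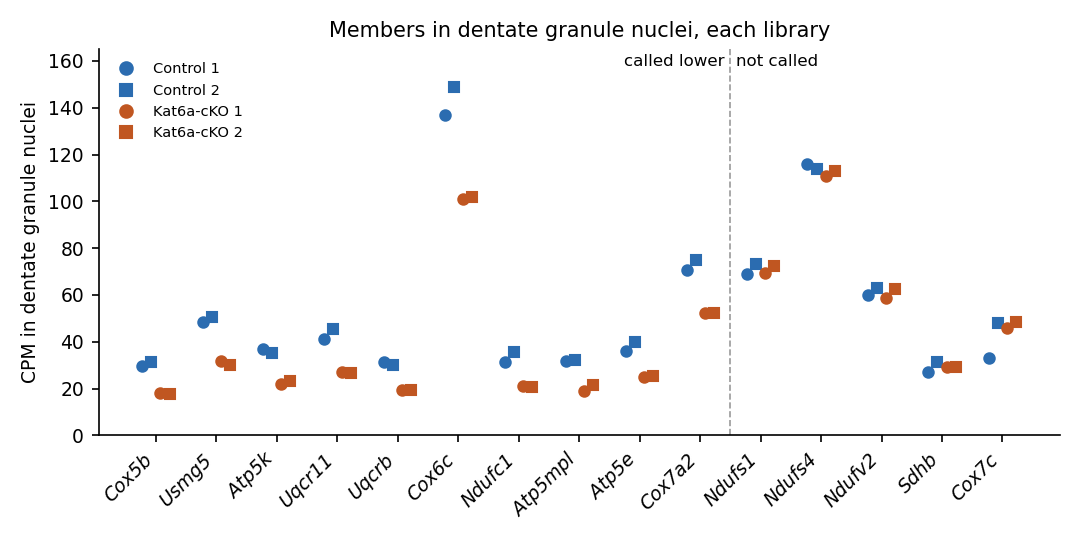
CPM of single members in dentate granule nuclei; each point is a library, coloured by group, and the dashed line separates the 10 members of smallest p (left) from 5 that did not pass (right). On the left the Kat6a-cKO points are the lowest for every gene; on the right the groups overlap for Ndufs1, Ndufv2, Sdhb and Cox7c.

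The count of 19 moved with the libraries and the settings. It was 0 with free RNA subtracted in either of 2 ways given further on (0 and 1 of all genes called), 49 without the filter on low counts (608 of all genes) and 35 with a replicate block (231). Without Control 1 it was 48, without Kat6a-cKO 1 it was 12 and without Kat6a-cKO 2 it was 29, with the remaining lone library assumed to vary like the other group; without TMM scaling it was 3, and with DESeq2 37. Calls among all genes moved too, from 97 to 418, 86, 313, 16 and 210 in the same order. Counts in 45 of the 101 member IDs can be shared with an overlapping annotated gene, since the strand setting of the authors' counting is not given in the sources used here.

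In CA1 pyramidal nuclei 1 of 91 members fell, against 0.0484% of 16543 genes called lower and 0.115% either way. Usmg5 measured 34.0 and 35.3 CPM in the Control and 21.3 and 20.7 CPM in the Kat6a-cKO libraries (log2 fold change -0.73, SE 0.09, edgeR adjusted p 0.0419). The groups did not overlap for 61 of 91 members with Kat6a-cKO below, against 20.8% of all genes, and the median log2 fold change was -0.31. Next by p came Cox5b, with 17.7, 21.3, 10.8 and 10.4 CPM (edgeR adjusted p 0.0622), Atp5k with 25.1, 24.1, 15.8 and 15.1 CPM (0.0671), Atp5e with 23.0, 27.0, 16.2 and 15.5 CPM (0.114) and Cox7a2 with 55.7, 55.5, 41.9 and 39.7 CPM (0.114). All 4 had Kat6a-cKO libraries below Control libraries without passing. Cox7c measured 29.0, 38.5, 39.4 and 39.6 CPM, with Kat6a-cKO above Control. The count was 4 without Control 1, 2 without Kat6a-cKO 1, 9 without Kat6a-cKO 2 and 12 in DESeq2, where 37, 42, 220 and 107 of all genes were called, against 19 with all libraries in edgeR. It was 0 without TMM scaling or with doublets kept, with 6 and 4 of all genes called, 30 without the filter (516) and 8 with a replicate block (117). With free RNA subtracted it was 0 in either way (1 and 2 of all genes), and the log2 fold change of Usmg5 was 0.38 by markers (edgeR adjusted p 0.986) and -0.48 by droplet (0.585).

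In CA3 pyramidal nuclei, the region named in the title of the series, 0 of 90 members passed in edgeR, 1 passed in DESeq2, and 43 had an unadjusted p under 0.05 in edgeR. Of all 14614 genes 0.0411% passed and 8.2% had an unadjusted p under 0.05. Without the filter on low counts 17 members passed (306 of all genes), and with a replicate block 5 (146). With free RNA subtracted 0 passed in either way (1 and 2 of all genes). Kat6a-cKO was lower without overlap for 63 of 90 members, against 19.7% of all genes. Usmg5 measured 26.4, 28.7, 17.9 and 15.6 CPM (log2 fold change -0.72, SE 0.12, edgeR adjusted p 0.101). Cox8a measured 46.7, 57.9, 36.4 and 35.4 CPM, Cox7a2 42.0, 42.8, 31.4 and 31.6 CPM, and Cox6c 56.4, 56.1, 44.8 and 38.0 CPM. These were lower in both Kat6a-cKO libraries, as was Atp5k (log2 fold change -0.605, adjusted p 0.168). Cox7c again went the other way, with 26.4, 31.3, 34.7 and 35.8 CPM (log2 fold change 0.29, not called). Without Control 1, 22 members passed, and without Control 2, 2 did, with 325 of 15401 and 269 of 15260 genes called, against 6 with all libraries.

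Inhibitory neurons, where no cre count was found, had a lower median for members too. Of 90 members 0 passed in edgeR and 0 in DESeq2, with 38 at an unadjusted p under 0.05 in edgeR, against 0.0948% of genes called and 6.7% at an unadjusted p under 0.05. The Kat6a-cKO libraries lay below the Control libraries for 65 of 90, against 18.1% of all genes, and the median log2 fold change was -0.29. Usmg5 measured 33.7, 37.2, 24.3 and 23.2 CPM (edgeR adjusted p 0.227). Cox6c measured 83.0, 82.4, 66.4 and 58.5 CPM, and Atp5k 26.5, 23.3, 15 and 17.7 CPM. In all 3 the groups were apart, and Atp5e (log2 fold change -0.566) and Ndufb11, an accessory subunit of complex I (-0.698), also lay lower without passing. Leaving out Kat6a-cKO 1 or Kat6a-cKO 2 gave 1 member call each, with 70 of 13284 and 72 of 13325 genes called, against 12 with all libraries.

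In oligodendrocyte precursors 5 of 85 members fell, against 0.207% of 8705 genes called lower and 0.391% either way. Ndufb11 had counts of 61, 43, 19 and 9, or 55.4, 54.2, 20.7 and 15.3 CPM (log2 fold change -1.56, SE 0.315, edgeR adjusted p 0.00488). Usmg5 measured 62.7, 87.0, 37.0 and 25.5 CPM, Cox6c 155, 168, 100 and 83.2 CPM, Atpif1 101, 73.2, 49 and 40.8 CPM and Ndufa5, a complex I subunit, 79.0, 103, 50.1 and 44.2 CPM. The groups did not overlap for any of these 5, nor for 46 of the 85 members with Kat6a-cKO lower, against 18.7% of all genes. Of the 5, Ndufb11 overlaps Rbm10, Usmg5 Taf5, Cox6c Vps13b and Atpif1 Gm12999, so that counts can be shared. The calls numbered 3 without Control 1, 2 without Control 2, 3 without Kat6a-cKO 1 and 1 without Kat6a-cKO 2, and DESeq2 made 0. Calls among all genes, 34 with all libraries in edgeR, then numbered 27, 17, 21, 37 and 1.

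Astrocytes and oligodendrocytes had the fewest UMIs. In astrocytes 0 of 76 members passed in edgeR and 0 in DESeq2 (7 at an unadjusted p under 0.05 in edgeR), where 0.0312% of genes were called and 5.96% had such a p. In oligodendrocytes it was 0 of 80 in both tools (24 at an unadjusted p under 0.05), against 0.0129% called and 5.47%. Medians were -0.266 in astrocytes and -0.457 in oligodendrocytes on the log2 scale. The smallest p in astrocytes was that of Uqcrh, the hinge protein of complex III, with 153, 134, 88.2 and 92.6 CPM, followed by Ndufa5, Atp5g3, Cox5b and Uqcr11. In oligodendrocytes it was that of Uqcr10 of complex III, with 75.5, 59.6, 29.5 and 29.5 CPM, followed by Ndufb9, Uqcr11, Cox8a and Ndufa13. In all 10 the groups did not overlap and Kat6a-cKO was lower. This held for 33 of the 76 members in astrocytes and 51 of the 80 in oligodendrocytes, against 17.3% and 17.9% of all genes.

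Whether the change differed between the excitatory classes was tested as an interaction of class and genotype with library as a block. Of 91 members 0 were called between CA3 and CA1, 0 between CA3 and dentate granule and 0 between CA1 and dentate granule, with 6, 5 and 3 at an unadjusted p under 0.05 in edgeR. Of all genes 0.232%, 0.266% and 0.135% were called. The smallest adjusted p were 0.51 for Sdhc, 0.51 for Ndufa9 and 0.648 for Ndufc1. No member's change was thus shown to differ between dentate granule, CA1 and CA3, which does not show that the changes were equal.

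The size of a member's change followed its enrichment in free RNA. Across members Spearman's rho between the ratio of free RNA to nuclei and the log2 fold change was -0.90 in dentate granule, -0.85 in CA1, -0.77 in CA3, -0.71 in inhibitory neurons, -0.40 in astrocytes, -0.67 in oligodendrocytes and -0.62 in OPC. These are descriptions over at most 91 genes that share libraries, depth and the nuclear counts in both measures. In dentate granule nuclei the 54 members with a ratio of 10 or more had a median log2 fold change of -0.48, and all 54 were below 0. The 544 other genes with such a ratio had a median of -0.41. Members with a ratio under 1 numbered 4, with a median of 0.02 against 0.05 for other genes. In CA1 the medians at a ratio of 10 or more were -0.43 for members and -0.38 for other genes, and in CA3 -0.38 and -0.32.

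**Figure D4:**
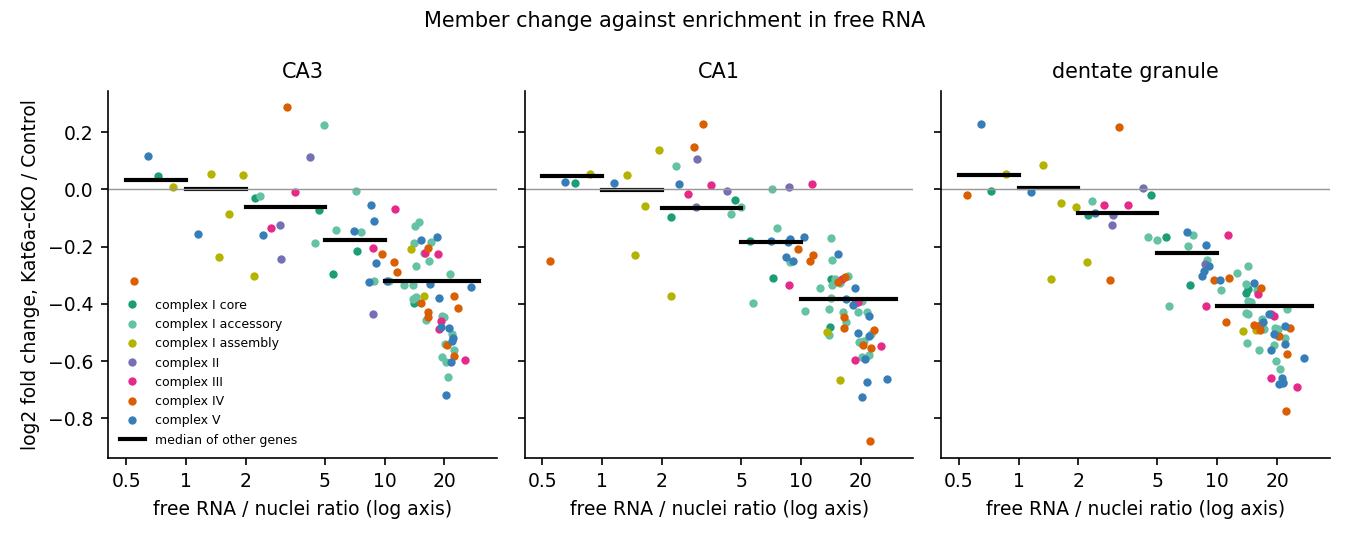
Log2 fold change of each member (Kat6a-cKO over Control) against its ratio of free RNA to nuclei (log axis), in CA3, CA1 and dentate granule nuclei, coloured by complex; black bars are medians of other genes in the same range of the ratio. The points slope down along the bars, to medians of -0.48 for members and -0.41 for other genes at a ratio of 10 or more in dentate granule.

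Free RNA was subtracted in 2 ways. The share of free RNA in a class was estimated from marker sets of other cell types. In each library the set with the lowest estimate was taken. This was the microglia or oligodendrocyte set throughout, and it differed between libraries in CA3 and astrocytes. The share came to 6.53%, 6.91%, 4.78% and 6.09% of UMIs in dentate granule nuclei and 2.88%, 3.48%, 2.33% and 2.69% in CA3. Counts that would have fallen under 0 were set to 0, also in the second way. With this share removed, members held 0.116%, 0.129%, 0.135% and 0.119% of UMIs in dentate granule, 0.118%, 0.128%, 0.132% and 0.116% in CA1, and 0.121%, 0.126%, 0.13% and 0.123% in CA3. The groups then overlapped in these 3 classes, in astrocytes and in OPC. In oligodendrocytes (0.0942%, 0.0817%, 0.117% and 0.113%) and inhibitory neurons (0.134%, 0.131%, 0.14% and 0.135%) they were apart with Kat6a-cKO higher, the reverse of the shares as counted. Of the 73 members left in dentate granule 0 were called by edgeR (6 at an unadjusted p under 0.05), and of all 16260 genes left there 0 were called too (676 at an unadjusted p under 0.05), so the 0 is no result about the members. The other classes had 0 members called as well (0 to 10 at an unadjusted p under 0.05), with 0 or 1 of all genes. Members left to test numbered 27 in oligodendrocytes and 67 in inhibitory neurons, against 80 and 90 as counted. The part of the floor at 0 in the shares was not tested. The second way, chosen after seeing the data, removed the mean content of 1 barcode of 100 to 900 UMIs from each nucleus. Members then held 0.199%, 0.218%, 0.171% and 0.197% in dentate granule, where Kat6a-cKO was still lower by 11.5% and the median log2 fold change was -0.22. Of 91 members 0 were called in edgeR (30 at an unadjusted p under 0.05), as was 1 of all 16767 genes (1046). In CA3 the Kat6a-cKO share was lower by 8.23% and in CA1 by 6.92%, the latter with overlapping groups.

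**Figure D5:**
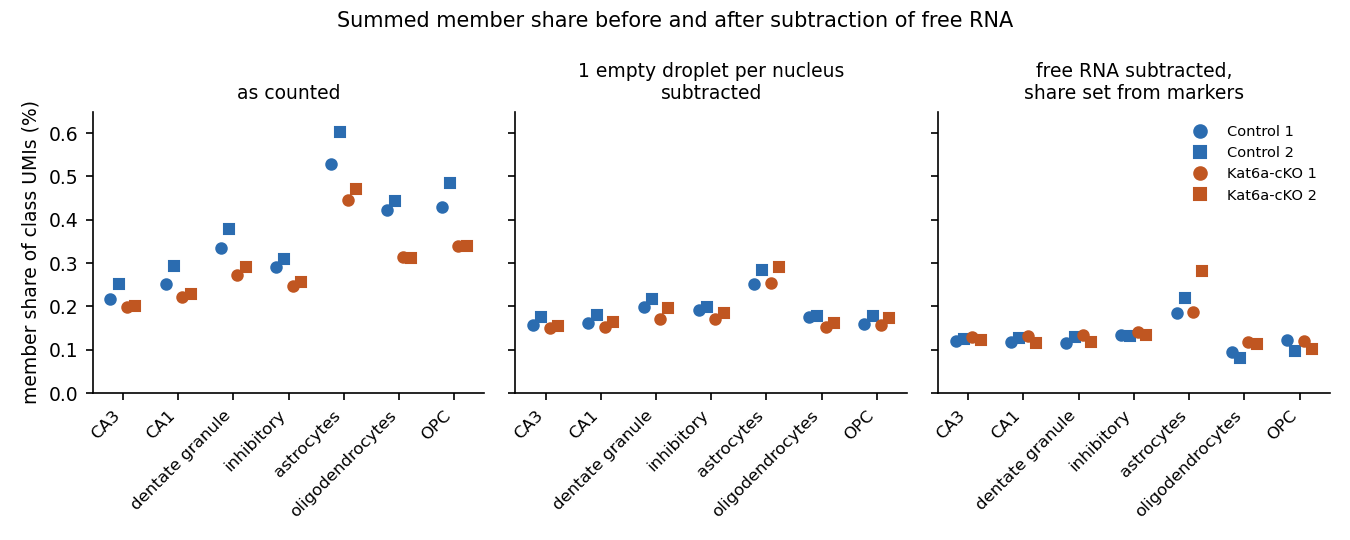
Summed member share of class UMIs (percent), with points as single libraries. Panels are without subtraction (left), with 1 empty droplet per nucleus subtracted (middle) and with free RNA estimated from markers subtracted (right). The gap between groups seen on the left, such as 0.335% and 0.379% against 0.272% and 0.29% in dentate granule, is gone for dentate granule, CA1 and CA3 in the marker-based panel, where oligodendrocytes and inhibitory neurons have Kat6a-cKO above Control, and is smaller in the panel with 1 empty droplet subtracted, where astrocytes, CA1 and OPC overlap.

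Genes of neighbouring pathways and of the cytoplasm gave the following in all nuclei together. The 13 mitochondrially encoded subunits, which nuclei do not transcribe, took a share lower by 26.2% in Kat6a-cKO (lower by 5.9% in astrocytes, where the groups overlapped, and not lower in free RNA), and cytosolic ribosomal proteins and abundant cytoplasmic mRNAs shares lower by 31.5% and 31.2%. Members were lower by 19.7%, complexes IV, V and III by 24.2%, 23.1% and 22.1%, and complex I core, complex II and assembly factors by 8.19%, 5.02% and 3.76%. Enzymes of the TCA cycle were lower by 1.97% and of glycolysis by 9.4%, both with overlapping groups. By class, glycolysis was lower without overlap in dentate granule (0.0466%, 0.0547%, 0.0401% and 0.046%), astrocytes, oligodendrocytes and OPC. In CA3, CA1 and inhibitory neurons its groups overlapped. The TCA groups were apart in astrocytes with Kat6a-cKO higher and in OPC with Kat6a-cKO lower, and overlapped in the other classes. In free RNA both lists were lower without overlap. In all nuclei together mitochondrial ribosomal proteins were lower by 9.52% and complex IV assembly factors by 8.23% without overlap. Regulators of mitochondrial biogenesis took 0.0749%, 0.0746%, 0.0772% and 0.0774%, with Kat6a-cKO higher without overlap. By class this held in CA1 and dentate granule only. In oligodendrocytes the regulators were apart with Kat6a-cKO lower (0.061%, 0.0645%, 0.0556% and 0.0597%). In CA3, inhibitory neurons, astrocytes and OPC the groups overlapped for them. The exact permutation p of each list without overlap was 0.33, the smallest possible. In dentate granule nuclei 33 of 76 ribosomal protein genes and 5 of 18 abundant cytoplasmic mRNAs fell and 0 rose, against 0 of 16 TCA genes (2 at an unadjusted p under 0.05 in edgeR) and 0 of 16 regulators of mitochondrial biogenesis such as Nrf1, Gabpa and Tfam (0 at an unadjusted p under 0.05). The regulators' median log2 fold change there was 0.025, 1 of 18 tested complex IV assembly factors fell, and 0 of 72 mitochondrial ribosomal protein genes passed (23 at an unadjusted p under 0.05). Of all genes 0.515% were called lower and 10% had an unadjusted p under 0.05, so that 0 calls in a list of 16 is near the background.

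Levels of the same gene were compared between classes over all 4 libraries, with library as a block and members left out of the clustering. Of 92 members tested, 66 were lower and 8 higher in CA1 than in dentate granule, 74 lower and 5 higher in CA3 than in dentate granule, and 57 lower and 3 higher in CA3 than in CA1 (edgeR adjusted p under 0.05). Of all genes 33.5%, 34.2% and 26.6% were lower and 30.4%, 31.5% and 25.6% higher in these contrasts. Astrocytes had 63 higher and 4 lower than CA1, OPC 50 and 10, oligodendrocytes 46 and 12 and inhibitory neurons 11 and 7, against 25.9%, 27.2%, 28.2% and 29.1% of all genes higher and 29.9%, 29%, 31.9% and 28.4% lower. Median UMIs per nucleus moved with this order, from 23343 to 28495 in CA3 down to 11035 to 12002 in dentate granule and 5638 to 6408 in astrocytes, oligodendrocytes and OPC. The counts in each direction depended on whether and how free RNA was subtracted. With free RNA estimated from markers removed, 87 members gave 24 higher and 12 lower calls in CA1 against dentate granule. CA3 against dentate granule gave 32 and 14, and CA3 against CA1 9 and 6. Of all genes 56.4%, 58.2% and 45.8% were called either way in these 3 contrasts. All-gene calls were not split by direction after subtraction, so the order of higher and lower member calls was not set against a background. Against CA1, OPC gave 4 higher and 19 lower, oligodendrocytes 5 and 32 and astrocytes 21 and 6. With 1 empty droplet removed, the 3 excitatory contrasts gave 9 higher and 45 lower, 9 and 42, and 7 and 10 of 92 in the same order, OPC 3 and 28, oligodendrocytes 7 and 28 and astrocytes 23 and 5. Between 45.8% and 60.4% of all genes were called either way in these contrasts.

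Some members passed the test between classes under both subtractions and without either, and these, apart from Ndufaf2, were named after their values were seen. Ndufaf4, an assembly factor of complex I, measured 44.2 ± 5.21 CPM in CA3, 44.5 ± 4.51 in CA1 and 27.7 ± 4.00 in dentate granule (mean ± SD, n = 4 libraries). Its log2 difference of CA1 over dentate granule was 0.69 (SE 0.06, edgeR adjusted p 3.15e-12), and 0.74 and 0.72 with free RNA removed by markers and by droplet. CA1 and CA3 did not differ beyond their spread. Ndufaf6, another assembly factor, measured 23.8 ± 2.56, 22.7 ± 2.01 and 15.4 ± 0.735 CPM in the same classes, and the listed Ndufaf2 54.8 ± 1.59, 59.6 ± 3.99 and 43.3 ± 1.70. Both were higher in CA1 than in dentate granule, by 0.56 and 0.46 on the log2 scale, and by 0.59 and 0.53 with marker-based removal. Ndufaf5, a hydroxylase that acts in complex I assembly, was highest among excitatory classes in CA3 (34.0 ± 1.94 CPM, against 26.8 ± 1.2 in CA1, log2 difference 0.34, edgeR adjusted p 0.000108).

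Other members had other orders of levels. Cox6c was highest in dentate granule among excitatory classes, with 131 ± 25.5 CPM against 74.3 ± 14.9 in CA1 and 56.4 ± 10.1 in CA3 (SD, n = 4). The log2 difference of CA1 and dentate granule was -0.82, and -1.87 and -1.18 with free RNA removed by markers and by droplet. Ndufs3, a core subunit of complex I, measured 59.8 ± 2.16 CPM in CA1, 36.6 ± 3.21 in OPC and 35.4 ± 3.11 in oligodendrocytes. The glial levels were different by -0.695 and -0.737 on the log2 scale (edgeR adjusted p 1.83e-07 and 1.93e-07), and by -0.939 and -1.029 with free RNA removed by markers. Inhibitory neurons were lower than CA1 too, with 43.4 ± 2.89 CPM (edgeR adjusted p 7.19e-10), as were astrocytes with 44.0 ± 8.79 (0.00786). Ndufs4 measured 58.6 ± 12.5 CPM in oligodendrocytes against 100 ± 4.56 in CA1, 113 ± 4.23 in CA3, 111 ± 18.7 in astrocytes and 93.9 ± 14.3 in OPC. Cox7b2 was highest in astrocytes, with 27.0 ± 9.63 CPM against 7.65 ± 1.29 in CA1 and 1.11 ± 1.28 in oligodendrocytes (log2 difference of astrocytes over CA1 1.77, SE 0.31, edgeR adjusted p 6.28e-06). It was the member least enriched in free RNA, and the difference was 1.87 and 1.85 after the subtractions.

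Most tissue-specific isoforms were scarce, Cox7b2 being an exception. Levels between genes are given as CPM per kilobase of exon in all nuclei, and UMI counts need not grow with exon length, so their order depends on this scaling. The common forms measured 12.9 CPM per kb for Cox4i1, 37.8 for Cox6a1, 56.2 for Cox7a2, 107 for Cox8a and 48.1 for Ndufa4. The alternative forms measured 0.376 for Cox4i2, a hypoxia-responsive form of subunit IV, 0.244 for Cox6a2 and 1.05 for Cox7a1, both of striated muscle, 0.0897 for Cox8b and 0.0995 for Ndufa4l2. Cox7b2 measured 16.1 CPM per kb, above Cox4i1, but without this scaling it lay below Cox4i1, at 8.75 CPM against 20.0 CPM. Cox8c had 0 counts in nuclei of all 4 libraries, as had the pseudogenes Cox6c2, Ndufb4c and Ndufs6b. Cox4i2 had 30, 35, 50 and 32 counts over all nuclei and measured 3.65 ± 2.06 CPM in oligodendrocytes and 0.12 ± 0.16 in CA3 (SD, n = 4), and it was tested in no class. Of the 101 IDs, 90 reached 1 CPM in nuclei, and the members tested in a class were those that passed the filter on low counts, not all members.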

How the data were processed

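Single-nucleus RNA-seq libraries of hippocampus (10x Genomics Chromium, per the labels) were analysed from the deposited matrices of raw UMI counts per barcode and gene, which hold every observed barcode. The submitters' processing notes name mm10 and Seurat 4.0.1; aligner, annotation release, strand setting and filters are not given in the sources used here. All gene IDs of the members matched GENCODE M21 by version. The nuclei were isolated by detergent homogenisation and an iodixanol gradient, per the labels' protocols.

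Barcodes of at least 5000 UMIs were nuclei and those of 100 to 900 UMIs measured free RNA. Doublets (1107) were called with Scrublet in scanpy 1.11.5 (expected rate 0.06), and nuclei were clustered (2000 variable genes, 30 components, 15 neighbours, leidenalg 0.10.2 at resolution 1) without 388 genes, the members and compared lists, and classed by markers. Counts were summed per library and class and tested on all genes with filterByExpr, TMM and the quasi-likelihood test of edgeR 4.0.16 (R 4.3.3) at a Benjamini-Hochberg adjusted p under 0.05; CPM are after TMM scaling in the tests by class. Shares were tested by exact permutation in scipy 1.17.1. The scripts were tested on simulated data. DESeq2 1.42.0, scaling, filter, block, class, depth and free RNA settings, and leaving out each library, were the alternatives.

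The members and lists were chosen with earlier results of these data known. Members named were 33 listed ones wherever counted, at most the 10 of smallest p among those called in a class, and, where under 5 passed, the 5 of smallest p; others are marked as chosen after their values were seen. The values of 1 listed member are not reported here. Barcodes of 901 to 4999 UMIs entered no class and no test across genes; only their summed shares are given.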

Additional observations from a re-analysis of the deposited data

How the results depend on the processing

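Counts of members called by edgeR's quasi-likelihood test depended on the setting most in dentate granule, CA1, CA3 and OPC. Members called in dentate granule, 19 as reported, numbered 37 with DESeq2, 3 without TMM scaling, 49 without the filter on low counts, and 12 to 48 with 1 library left out, the highest without Control 1. In CA1, 1 as reported, they numbered 12 with DESeq2, 0 without TMM, 30 without the filter, 0 with doublets kept and 1 to 9 with 1 library left out. In CA3, 0 as reported, they numbered 1 with DESeq2, 17 without the filter and 0 to 22 with 1 library left out. In OPC, 5 as reported, they numbered 0 with DESeq2, 3 without TMM, 3 with doublets kept, 2 at Leiden resolution 2 and 1 to 3 with 1 library left out. In inhibitory neurons the range with 1 library left out was 0 to 1. Calls among all genes moved as well. In dentate granule they went from 97 to 210 with DESeq2, 16 without TMM, 608 without the filter and 86 to 418 with 1 library left out. In CA1 they went from 19 to 107, 6, 516 and 37 to 220, and in CA3 from 6 to 30, 10, 306 and 4 to 325. In OPC they went from 34 to 1, 13, 39 and 17 to 37. With doublets kept they numbered 4 in CA1 and 15 in OPC, and at Leiden resolution 2 they numbered 19 in OPC. With free RNA subtracted by either way the count of members called was 0 in dentate granule, CA1, CA3, OPC and inhibitory neurons. The calls among all genes then numbered, by markers and by droplet, 0 and 1 in dentate granule, 1 and 2 in CA1, 1 and 2 in CA3, 0 and 0 in OPC and 1 and 6 in inhibitory neurons.

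The labels give both groups the replicate numbers 1 and 2. Deviations of same-numbered libraries correlated at 0.18 in CA1, 0.15 in dentate granule, 0.13 in CA3 and -0.03 to 0.08 in the other classes. With 2 pairs, these values cannot decide whether same-numbered libraries shared a preparation. With a replicate block the calls numbered 35 in dentate granule, 8 in CA1, 5 in CA3, 5 in OPC and 0 in the others. Calls among all genes with the block numbered 231, 117, 146 and 63 in the first 4 of these classes. They numbered 52 in inhibitory neurons, 41 in astrocytes and 1 in oligodendrocytes.

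The difference in summed member share (Kat6a-cKO minus Control, percentage points) turned positive with free RNA estimated from markers removed: 0.00332 in CA3, 0.000614 in CA1, 0.00431 in dentate granule, 0.00483 in inhibitory neurons, 0.0327 in astrocytes, 0.0269 in oligodendrocytes and 0.000826 in OPC. With 1 empty droplet per nucleus removed it turned positive in astrocytes (0.00534). Members that differed between classes, in either direction, then numbered, by markers and by droplet, 15 and 17 between CA3 and CA1, 46 and 51 between CA3 and dentate granule, 23 and 31 between OPC and CA1, 27 and 28 between astrocytes and CA1, and 37 and 35 between oligodendrocytes and CA1; between CA1 and dentate granule the marker-based count was 36.

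Single members whose log2 fold change turned sign with free RNA removed by markers were, in dentate granule, Cox5a (0.27), Atp5g1 (0.55), Cyc1 (0.07), Ndufv2 (0.17, and 0.08 by droplet), Ndufb8 (2.0), Uqcrc1 (0.00), Cox7a2 (0.24), Cox8a (1.08), Cox6b1 (0.81) and Atpif1 (0.09), in CA1 Usmg5 (0.38), in CA3 Cox6c (0.63) and Usmg5 (0.38), and in inhibitory neurons Cox6c (0.91). With 1 library left out the sign turned in dentate granule for Sdhb (-0.10 to 0.10), Cox7c (-0.04 to 0.51), Cyc1 (-0.40 to 0.04), Ndufv2 (-0.07 to 0.02), Uqcrc1 (-0.14 to 0.02), Ndufs1 (-0.06 to 0.04) and Atp5g2 (-0.24 to 0.05), none of them called as reported. Sdhb was -0.01 without TMM or without the filter. Where signs turned, the cause was not tested. With free RNA removed by markers, 14 members named in a class turned sign, 17 were labelled the same and 3 weaker. The other named members were no longer tested in this way. The 14 had edgeR adjusted p from 0.906 to 0.999. Counts that would have fallen under 0 were set to 0, so such values can rest on small remainders. Astrocytes, oligodendrocytes and OPC held too few nuclei of at least 10000 UMIs for that setting, and no cluster was named oligodendrocytes with doublets kept, so these were not run. Glial sums of 284542 to 1179282 UMIs limit the precision for low members.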
